A study of Bos taurus with 32 samples.

Results

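The genes described here are a set of 51 testicle-enriched transcripts of low abundance, taken from 27607 gene IDs measured in 32 libraries from Holstein bull calves. They were chosen by their own levels. Levels are CPM values, the usual scaling of a gene's count by the total count of its library, and a tissue's level was the mean of its 8 libraries. A gene was taken when its testicle mean was at least 4 and under 15 CPM and when that mean plus 0.5 was at least 8 times the mean plus 0.5 of each of the other 3 tissues. Embryo origin played no part in the choice. The tissue differences are therefore given as a description without a test, and only the comparisons between calves are tested.

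The study compared calves born from embryos produced in vitro (IVP) with calves from embryos produced in vivo by multiple ovulation and embryo transfer (MOET). It covered tissues of the brain, pituitary, gonad and adrenal. All embryos were Holstein and were transferred to synchronized recipients, and all calves were male. RNA was read in the testicle, adrenal, pituitary and hypothalamus of 4 IVP and 4 MOET calves, so each group of a tissue held 4 separate animals. The IVP calves 3208, 3209, 5833 and 5841 were 103, 103, 103 and 98 days old and weighed 138, 125, 118 and 131 kg at collection. The MOET calves 3217, 3218 and 5932 were 102, 102 and 104 days old and weighed 131, 108 and 115 kg, and MOET calf 3213 was 144 days old and weighed 172 kg. The design text of the series gives all calves as about 3 months old.

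A testicle before puberty holds seminiferous cords of Sertoli cells and early germ cells, with Leydig cells, peritubular cells, vessels and macrophages between the cords. Meiosis and sperm formation, which use a large set of testis-restricted genes, begin in earnest only towards puberty. Many transcripts known from the testis are read in few or no other organs. In bulk tissue a low level can come from a small share of cells or from little RNA per cell, and these cannot be told apart.

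The files give Ensembl IDs without gene symbols, and 0 of the IDs could be matched to a symbol. The members are therefore given by their rank of testicle mean, from rank 1, the highest, to rank 51, the lowest, and their roles are not described. For the same reason the tissue labels could not be checked against defining markers.

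Library totals were 17357283 to 23380330 counts, and 20258880 to 22149064 in the testicle. A member's median count in a testicle library was 153, which carries a counting error of 8.08%. The 4 libraries of MOET calf 3213 stood apart. Its testicle counts differed from the pool of the other 3 MOET testicles with a chi-square per degree of freedom of 0.653 over 15079 genes, less than sampling noise alone gives, and the values were 0.728 in the hypothalamus, 0.992 in the pituitary and 3.57 in the adrenal, against 6.40 to 255 for each of the other 28 libraries. In the testicle, its level lay within the range of the other 3 MOET calves for 98.9% of genes, against 41.9% for calf 3217, 44.8% for calf 3218 and 14.5% for calf 5932. What this library holds was not tested. It was therefore not counted as a separate replicate in the group means and SDs of testicle CPM (n = 4 IVP, n = 3 MOET). Tissue means use all 8 libraries. The main edgeR results are given with all 8 libraries and again with 7, without calf 3213.

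In the testicle the 51 genes had a median level of 7.26 CPM and ranged from 4.12 to 14.8. There were 38 genes under 10 CPM and 13 at 10 CPM or more. The 2 members nearest the lower limit had means of 4.12 and 4.40 CPM, and the 2 nearest genes that missed it had 3.96 and 3.66. At the upper limit the members nearest to it had 14.8 and 14.3 CPM, and the genes just past it both had 15.3. On the 8-fold criterion the nearest members had ratios of 8.05 and 8.10, and the nearest genes that missed it had 7.87 and 7.76. The limits cut through a continuous range of levels: 128 genes met the same tissue criterion at 15 CPM or more.

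Each member was higher in each of the 8 testicle libraries than in any of the 24 other libraries, as the selection favours. Ratios over the next tissue, with 0.5 CPM added to both, were 8.05 to 25.7 with a median of 11.3. For 31 genes the mean was under 0.1 CPM in each of the other 3 tissues, and 19 genes had 0 to 3 counts in each of the 24 other libraries. In the smallest library 3 counts stand for 0.173 CPM, so levels below that are not distinguishable from 0 in a single library. For 12 genes the hypothalamus had no count in any library, and for 17 genes the pituitary had none, while each of the 51 genes had at least 1 count in the adrenal. The median of the members' tissue means was 0.0234 CPM in the hypothalamus, 0.0168 CPM in the pituitary and 0.0649 CPM in the adrenal. The adrenal was the next tissue for 34 genes, the hypothalamus for 11 and the pituitary for 6. Which cells, if any, carry these few counts was not tested.

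**Figure D1:**
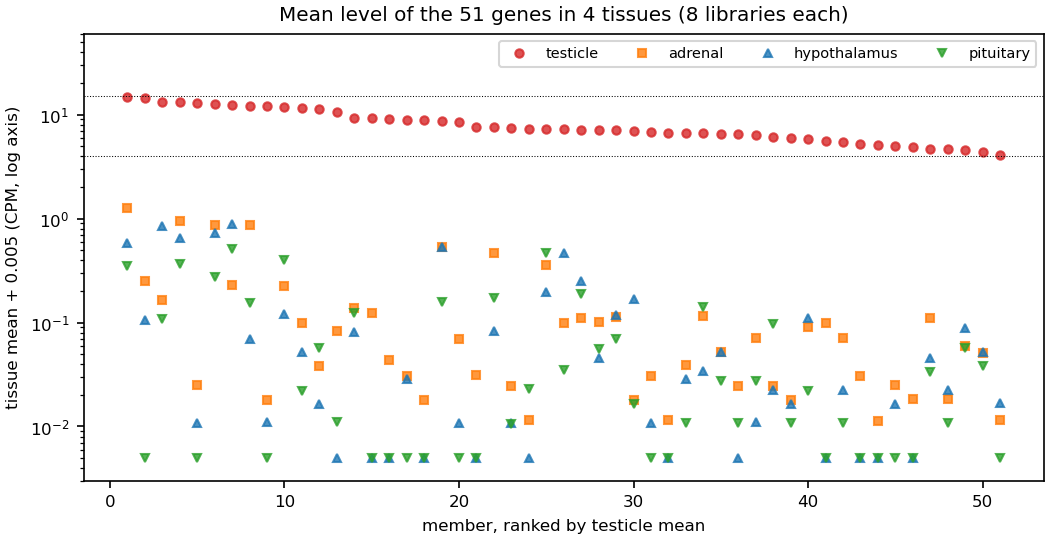
Mean CPM of each of the 51 genes in testicle, adrenal, hypothalamus and pituitary (8 libraries per point, log axis, 0.005 CPM added so that zeros can be drawn), ordered by testicle mean; dotted lines mark 4 and 15 CPM. The testicle points lie between 4.12 and 14.8 CPM, while no other tissue mean is above 1.25 CPM.

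A few members were read at a low level elsewhere. A mean of 0.5 CPM or more in another tissue was found for 7 genes, and the highest count of a member in any other library was 95. The gene of rank 1, ENSBTAG00000027524, had 14.8 CPM in the testicle, 1.25 CPM in the adrenal, 0.573 CPM in the hypothalamus and 0.347 CPM in the pituitary. Rank 7 had 0.887 CPM in the hypothalamus and 0.505 CPM in the pituitary, and rank 4 had 0.942 CPM in the adrenal and 0.642 CPM in the hypothalamus. At the other end, the gene of rank 5 had 12.9 CPM in the testicle and at most 0.0202 CPM in another tissue, the largest ratio among the members at 25.7. CPM is not scaled by gene length, so the values compare libraries for 1 gene and do not order the genes by number of molecules.

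Summed over the 51 genes, the testicle libraries held 310 to 495 CPM with a median of 426. The hypothalamus libraries held 3.67 to 12.8 CPM, the pituitary libraries 2.40 to 6.98 CPM and the adrenal libraries 5.30 to 11.7 CPM. Among the testicles, the sum was 410 CPM in IVP calf 3208, 310 in 3209, 433 in 5833 and 402 in 5841. In the MOET testicles it was 495 CPM in calf 3217, 430 in 3218 and 422.5 in 5932, and 429.5 in the library of calf 3213. The mean was 389 ± 54.0 CPM (SD, n = 4) in IVP and 449 ± 39.7 CPM (SD, n = 3) in MOET. The groups overlapped, since IVP calf 5833 was above MOET calves 3218 and 5932, and the low end was a single testicle, that of calf 3209. The 128 genes enriched in the same way at 15 CPM or more ran differently between the calves, with the highest sum in calf 3209 (72386 CPM) and the lowest in calf 3217 (48230 CPM), which was the highest for the 51 genes of low abundance.

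**Figure D2:**
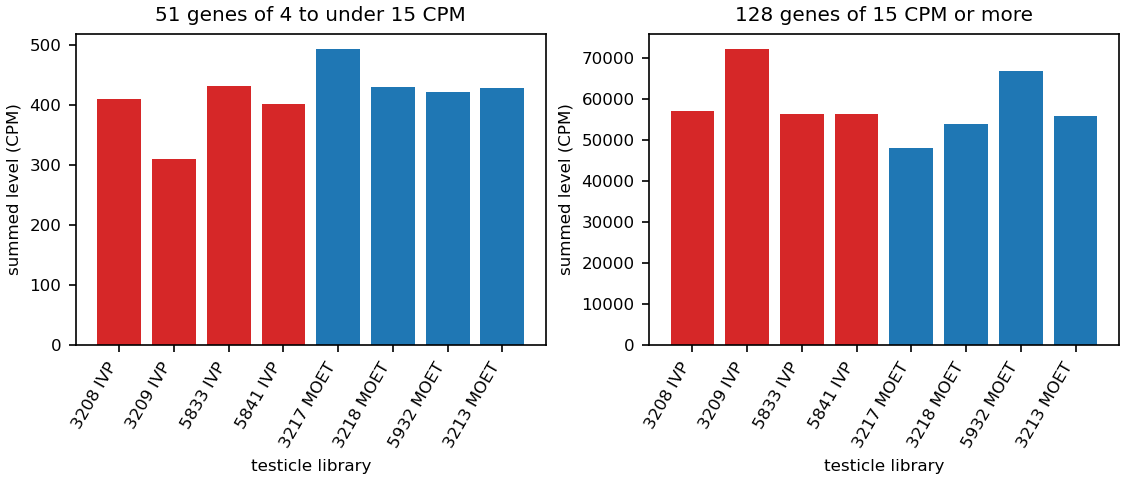
Summed CPM in each testicle library (one bar per calf; IVP red, MOET blue) for the 51 genes of 4 to under 15 CPM and for the 128 testicle-enriched genes of 15 CPM or more. On the left, calf 3209 is lowest at 310 CPM and calf 3217 highest at 495; on the right, calf 3209 is highest at 72386 CPM and calf 3217 lowest at 48230.

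The question of the study, whether embryo origin leaves a mark on these tissues, was put to each of the 51 genes. Most had a lower fitted level in the IVP testicle: 34 had a negative log2 fold change of IVP over MOET and 17 a positive one. Over all 16352 genes tested 7104 were negative and 9248 positive, and over the 128 more abundant testicle-enriched genes 33 and 95. The members share libraries, so their signs are not separate observations. The median of the members was -0.32 with a median SE of 0.26, beside a median of 0.03 over all genes tested. No member passed. With edgeR's quasi-likelihood test and Benjamini-Hochberg adjustment over all genes tested, 0 of 51 genes were called and the lowest adjusted p was 0.192, in a tissue where 1 gene in all, 0.00612%, was called. Without calf 3213 the call count was again 0 of 51, against 0.00605% of all genes, the lowest adjusted p was 0.886 and the median log2 fold change was -0.35 with a median SE of 0.31.

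At an unadjusted p under 0.05 in the same edgeR test there were 17 members, or 33.3%, beside 9.04% of all genes. Of these, 13 were lower and 4 higher in IVP, where 5.86% of all genes were lower and 3.18% higher at that threshold. The same 17 genes were under that threshold without calf 3213, while the background dropped to 4.99% (3.45% lower, 1.54% higher). Of the 128 genes enriched at 15 CPM or more, 28.1% were under it with all libraries and 19.5% without calf 3213. Their median log2 fold change with all libraries was 0.19. The share among the members thus stood above the background in both sets of libraries, as did that of the more abundant group, without any single member passing the adjusted threshold. The members share libraries and many vary together, so their p-values are not separate observations. On plain CPM, the IVP and MOET testicles did not overlap for 14 members, or 27.5%, with IVP below MOET for 12 of them and above for 2. Over all genes tested 7.97% did not overlap (7.2% with IVP below and 0.764% above), and over the 128 more abundant genes 10.9%. Without calf 3213 the count of members was 14, of which 12 were lower, against 7.96% of all genes.

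**Figure D3:**
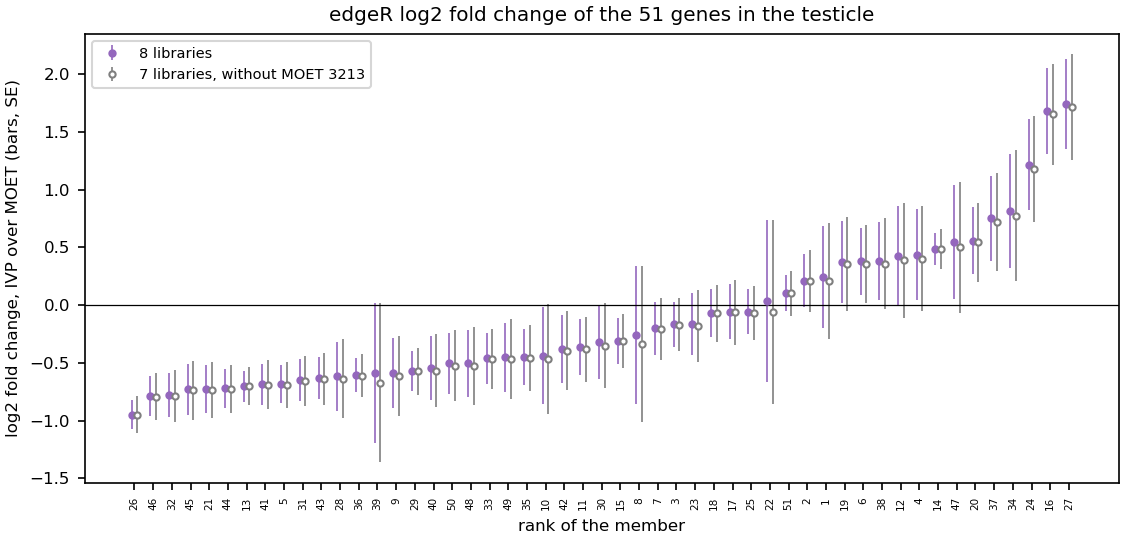
Fitted log2 fold change of IVP over MOET in the testicle for each of the 51 genes, ordered by size (edgeR; bars, SE), with all 8 libraries (filled) and with 7, without calf 3213 (open). The range is -0.95 to 1.74, 34 filled points lie below 0, and leaving out calf 3213 moves the points little and widens the bars.

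The gene with the smallest p among the members was ENSBTAG00000021814, of rank 26. Its level was 4.90, 3.72, 5.50 and 4.74 CPM in IVP calves 3208, 3209, 5833 and 5841, and 9.70, 11 and 8.68 CPM in MOET calves 3217, 3218 and 5932, with 9.88 in the library of calf 3213. The means were 4.72 ± 0.739 CPM (SD, n = 4) and 9.78 ± 1.14 CPM (SD, n = 3). Every IVP testicle was below every MOET testicle, with a gap wider than the spread of either group. The log2 fold change was -0.95 (SE 0.12) with an unadjusted p of 3.52e-05 and an adjusted p of 0.192 in edgeR's quasi-likelihood test. Without calf 3213 it was -0.95 (SE 0.16) with an adjusted p of 0.886. Its counting depth was ample for a difference of that size, since the smallest count of the gene was 81 in a testicle library. Of the 13 genes at the lower side it was the only one read above 0.15 CPM elsewhere, with 0.464 CPM in the hypothalamus.

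The gene ENSBTAG00000052186, of rank 13, gave a like picture. It had 7.70, 6.39, 9.41 and 7.40 CPM in IVP calves 3208, 3209, 5833 and 5841, and 16, 13.8 and 11 CPM in MOET calves 3217, 3218 and 5932, with 13.7 in the library of calf 3213. The means were 7.73 ± 1.26 CPM (SD, n = 4) and 13.6 ± 2.51 CPM (SD, n = 3). The groups did not overlap, with calf 5833 the highest IVP testicle and calf 5932 the lowest MOET testicle. The log2 fold change was -0.70 (SE 0.13), with an adjusted p of 0.236 in edgeR, and -0.70 (SE 0.16, adjusted p 0.886) without calf 3213. Rank 46 had 2.62 to 4.64 CPM in IVP and 5.98 to 6.53 CPM in MOET, again without overlap, and a log2 fold change of -0.79 (SE 0.17, edgeR adjusted p 0.266), or -0.79 (SE 0.21, adjusted p 0.886) without calf 3213.

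The 13 genes lower in IVP at an unadjusted p under 0.05 had the ranks 5, 13, 21, 26, 29, 31, 32, 36, 41, 43, 44, 45 and 46. They had testicle means of 4.84 to 12.9 CPM and log2 fold changes of -0.95 to -0.57. Summed over these genes, chosen on this difference and given as a description, the level was 65.0 CPM in IVP calf 3208, 50.2 in 3209, 86.3 in 5833 and 64.2 in 5841. The MOET testicles had 130 CPM in calf 3217, 107.7 in 3218 and 111.4 in 5932, and 116.1 in the library of calf 3213. The means were 66.4 ± 14.9 CPM (SD, n = 4) and 116 ± 12.0 CPM (SD, n = 3). For 12 of the 13 genes each other tissue was under 0.15 CPM. The pairwise Pearson r of their group-centred log2 CPM over the 8 testicles had a median of 0.53, with a range of -0.36 to 0.93 over 78 pairs that share libraries and scaling. The lowest sum was that of calf 3209, which was the lowest testicle for 31 of the 51 genes.

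The 4 genes higher in IVP at that threshold had the ranks 14, 16, 24 and 27. The gene ENSBTAG00000026119, of rank 16, had 21.3, 13.6, 7.73 and 11.3 CPM in IVP calves 3208, 3209, 5833 and 5841, and 3.19, 4.00 and 6.53 CPM in MOET calves 3217, 3218 and 5932, with 4.31 in the library of calf 3213. The means were 13.5 ± 5.76 CPM (SD, n = 4) and 4.57 ± 1.75 CPM (SD, n = 3). All IVP testicles were above all MOET testicles, with a wide spread within IVP. The log2 fold change was 1.68 (SE 0.37) with an adjusted p of 0.274 in edgeR, and 1.65 (SE 0.44, adjusted p 0.886) without calf 3213. The gene ENSBTAG00000016276, of rank 27, had 14.3, 8.55, 8.0 and 12.7 CPM in IVP calves 3208, 3209, 5833 and 5841, and 2.25, 2.07 and 6.03 CPM in MOET calves 3217, 3218 and 5932, with 3.33 in the library of calf 3213. The means were 10.9 ± 3.11 CPM (SD, n = 4) and 3.45 ± 2.23 CPM (SD, n = 3). These groups did not overlap either, and calf 5932 was the highest MOET testicle for both genes. Its log2 fold change was 1.74 (SE 0.39, edgeR adjusted p 0.275), and 1.71 (SE 0.46, adjusted p 0.886) without calf 3213.

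The other 2 genes on the higher side overlapped between groups. Rank 24 had 12.7, 3.40, 9.41 and 14.7 CPM in IVP calves 3208, 3209, 5833 and 5841, and 6.71, 2.86 and 4.43 CPM in MOET calves 3217, 3218 and 5932. Calf 3209 lay among the MOET testicles, and the log2 fold change was 1.22 (SE 0.39), or 1.18 (SE 0.46) without calf 3213. Rank 14 had a smaller difference, with 7.99 to 12.2 CPM in IVP, 7.11 to 8.93 CPM in MOET and a log2 fold change of 0.49 with and without calf 3213. Summed over the 4 genes, again a description, the level was 45.1 ± 11.8 CPM (SD, n = 4) in IVP and 20.8 ± 3.90 CPM (SD, n = 3) in MOET.

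**Figure D4:**
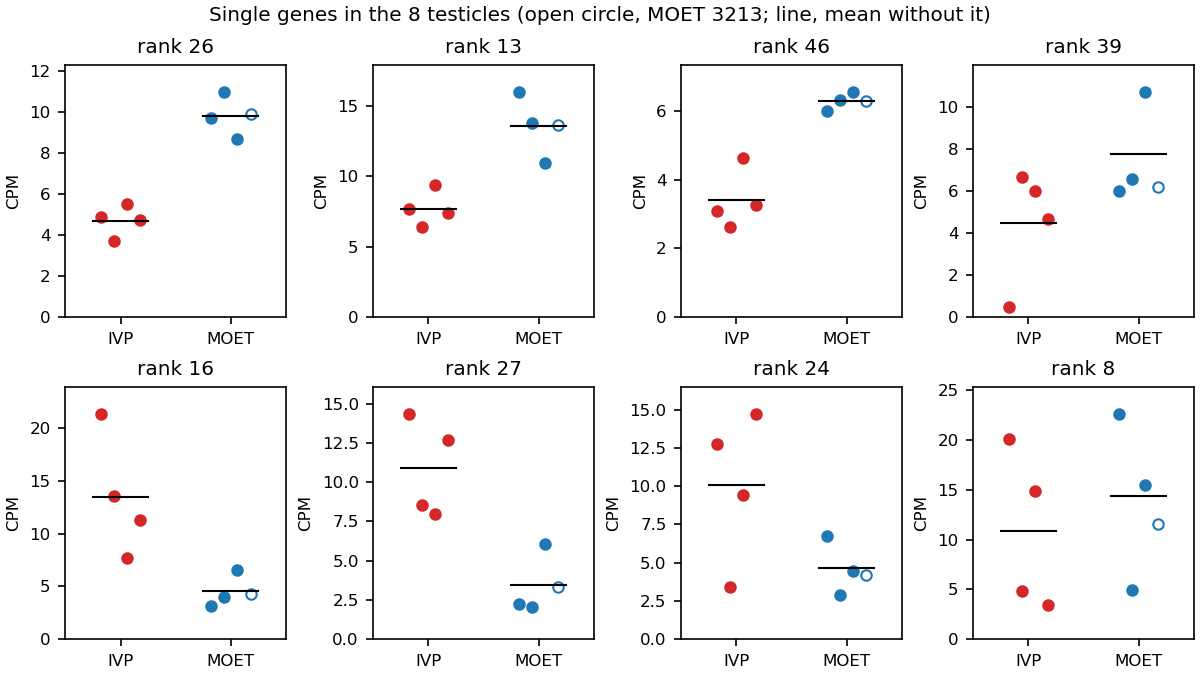
CPM in each testicle for 8 members, by embryo origin (points, calves; open circle, calf 3213; line, mean of 4 IVP calves or of 3 MOET calves). Ranks 26, 13 and 46 are lower and ranks 16 and 27 higher in IVP without overlap; rank 39 has 1 IVP testicle at 0.514 CPM, and rank 8 splits the calves of both origins.

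Testicles of the same origin differed, and 2 of the 8 stood apart. Over 14025 genes, a calf-to-calf score weighted testicle levels by the mean loading of the first within-group component of the other 3 tissues. How far those components agree between the tissues is not given here. The score was 0.34 in IVP calf 3209 and 0.25 in MOET calf 5932, and -0.16 to 0.02 in the other 6 testicles. The same calves stood out among the members: the first principal component of their group-centred log2 CPM held 60.6% of the within-group variance (60.7% without calf 3213), with scores of 0.69 for calf 3209, 0.49 for calf 5932 and -0.32 to 0.00 for the rest. Calf 3209 had the lowest level of the 8 testicles for 31 of the 51 genes, beside 49.3% of all genes, and calf 3217 the highest for 22, beside 24.5% of all genes. The library of calf 3213 was neither lowest nor highest for any member. What sets calves 3209 and 5932 apart was not tested.

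Members went with this score in both directions. Over the 8 testicles, which share their scaling, the Pearson r of a gene's log2 CPM with the score was at least 0.7 for 6 members (11.8%, against 27.4% of all genes) and at most -0.7 for 12 (23.5%, against 29.2%), and 33 lay between. Rank 12 had 3.81 CPM in calf 3209 and 4.25 CPM in calf 5932, and 9.09 to 16.7 CPM in the other 6 testicles. Rank 22 had 1.19 and 1.46 CPM in those calves and 5.32 to 14.2 CPM in the others. Rank 1 ran the opposite way, with 25.9 and 23.0 CPM in calves 3209 and 5932 and 9.21 to 13.7 CPM in the others. For these genes calves 3209 and 5932 were nearer to each other than to the calves of their own origin, and the log2 fold changes of IVP over MOET were 0.43 (SE 0.43), 0.04 (SE 0.70) and 0.24 (SE 0.44).

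**Figure D5:**
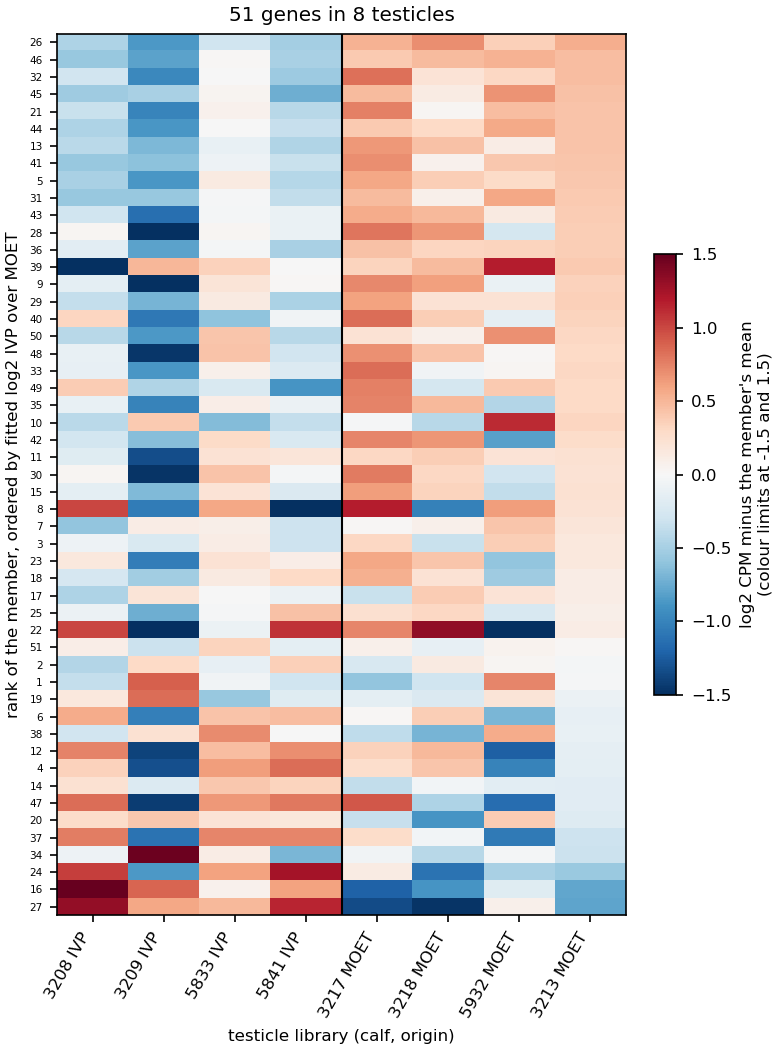
Group-wide pattern of the 51 genes in the 8 testicles: colour is log2 CPM minus the gene's own mean over the 8 testicles, rows are ordered by the fitted log2 fold change, columns are calves. The upper rows are blue in IVP and red in MOET, calf 3209 is the bluest column (lowest for 31 genes), and the column of calf 3213 holds the lowest or highest level of no gene.

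When the score entered the edgeR fit as a covariate, more genes passed, in a number that moved with the calves included. With all 8 libraries 22 of the 51 genes were called, 16 lower and 6 higher in IVP, beside 12.3% of all genes, and the median SE went down to 0.15. They included all 13 genes on the lower side above and 3 of the 4 on the higher side. Without calf 3213, 3 genes were called, all lower in IVP (ranks 26, 13 and 28), beside 0.908% of all genes. Calf 5841 mattered about as much: without it 4 genes were called, all lower, beside 2.21% of all genes. With any other single calf left out the count was 10 to 25, beside 4.28% to 18.3% of all genes. The 2 genes with the smallest p were called in each of these 9 fits. The edgeR adjusted p was 0.004 to 0.028 for rank 26 and 0.008 to 0.039 for rank 13. Both genes were picked by this same comparison and the fits share most libraries, so this is not separate support. With calves 3209 and 5932 both left out, 5 genes were called, 2 lower and 3 higher, beside 1.23% of all genes. Other models gave counts that moved in a like way. DESeq2 called 11 members, 8 of them lower, beside 1.77% of all genes, and without calf 3213 it called 4 beside 0.375%. Limma's voom with quality weights called 28 members beside 33.7% of all genes, and without calf 3213 it called 3 beside 0.448%. Without calf 5841 these tests called 4 and 1, beside 0.502% and 0.393% of all genes. Rank 26 was called by both tests with any single calf left out, and rank 13 likewise except by voom without calf 5841 (adjusted p 0.059). The choice of these genes by p limits this in the same way.

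The spread between calves was larger for most members than for the median gene, as it was for the more abundant testicle-enriched genes. The biological coefficient of variation fitted by edgeR, which is the spread left after counting error, had a median of 0.26 over the 51 genes, beside 0.22 over the 128 testicle-enriched genes of 15 CPM or more and 0.20 over all genes tested, and 39 of the 51 lay above the median of all genes. Without calf 3213 the medians were 0.29 and 0.23. With the library of calf 3213 included, the within-group SD of log2 CPM had a median of 0.40 over the members. It was 0.34 over the 128 more abundant genes and 0.29 over all genes. The lowest coefficient was that of rank 26 (0.14) and the highest that of rank 22 (0.68), at similar levels of 7.26 and 7.61 CPM.

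Further genes stood out by single calves or by a split of the calves. The gene ENSBTAG00000024915, of rank 39 and singled out after its values were seen, had 0.514 CPM in IVP calf 3208, from 11 counts. The other 7 testicles had 4.70 to 10.7 CPM, from 104 to 234 counts. The gene of rank 8 had 20.1 and 14.9 CPM in IVP calves 3208 and 5833 against 4.82 and 3.43 CPM in 3209 and 5841, and 22.6 and 15.5 CPM in MOET calves 3217 and 5932 against 4.94 CPM in 3218. Calves of both origins were thus found at both levels, and the coefficient of variation was 0.58. Rank 34 was high in calf 3209 alone, with 16.4 CPM there and 3.66 to 6.36 CPM in the other 7 testicles. The most even of the low genes was rank 51, with 3.26 to 5.14 CPM over the 8 testicles. Some pairs of members followed each other closely: 14 of the 1275 pairs had a Pearson r of log2 CPM over 0.95 across the 8 testicles, as ranks 44 and 46 (0.98) and ranks 9 and 28 (0.98). These r were not group-centred, so a difference between the origins enters them. Ranks 44 and 46 are both among the 13 genes lower in IVP, whose group-centred r was at most 0.93. The share over all pairs of genes is not given here. Libraries were not strand-specific, and the sources used here do not say how reads that fit more than 1 gene were treated. Overlapping or duplicated genes could share counts, which was not tested.

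Body weight at collection was tested as a slope per 10 kg beside origin. No member was called by edgeR, beside 0% of all genes. The median absolute slope of the members was 0.015 on the log2 scale with all libraries and 0.10 without calf 3213, beside 0.017 and 0.097 over all genes. At an unadjusted p under 0.05 there were 0 members and 0.0122% of all genes. DESeq2 called 0 members as well. Without calf 3213, the heaviest, edgeR called 0 members, and 1 member had an unadjusted p under 0.05 beside 1.53% of all genes. This was rank 40, with a slope of 0.37 per 10 kg (SE 0.14, edgeR unadjusted p 0.032, adjusted p 0.979). Calf 3213 was the heaviest and oldest calf, while its counts lay within the range of the other MOET calves for nearly all genes. The fit with all libraries could therefore hardly show a slope on weight, and its lack of calls decides little.

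Outside the testicle few members had counts enough for a test of origin. In the hypothalamus 5 passed the filter on low counts and 0 were called by edgeR, beside 0.056% of all genes. At an unadjusted p under 0.05 there were 2 of these (ranks 4 and 6, edgeR adjusted p 0.190 and 0.198), and DESeq2 called 0. The share of all hypothalamus genes under that unadjusted threshold is not given here. Without calf 3213 edgeR again called 0 of 5, beside 0.00614% of all genes, with 0 at an unadjusted p under 0.05. In the pituitary 1 member passed and 0 were called, beside 15.3% of all genes, with 0 at an unadjusted p under 0.05 and 0 called by DESeq2. Without calf 3213, 3 members passed and 0 were called, beside 2.37% of all genes. In the adrenal 4 passed and 1 was called, beside 39.3% of all genes. This gene was rank 1, ENSBTAG00000027524, with 23, 38, 31 and 34 counts in IVP calves 3208, 3209, 5833 and 5841, and 25, 11 and 11 counts in MOET calves 3217, 3218 and 5932, with 14 in the library of calf 3213. Calf 3217 lay among the IVP calves and the other MOET calves lay below them. The log2 fold change was 1.18 (SE 0.34) with an edgeR adjusted p of 0.0256, and without calf 3213 it was 1.16 (SE 0.39) with an adjusted p of 0.0637, beside 20.7% of all genes called. The call was thus lost without calf 3213, and it was lost as well without calf 3218 or calf 5932. In the testicle the same gene had a log2 fold change of 0.24 (SE 0.44), and the difference between the tissues was not tested.

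The gene of rank 4 had opposite signs in these tissues without passing in either. Its log2 fold change of IVP over MOET was 1.51 (SE 0.60, edgeR adjusted p 0.190) in the hypothalamus and -1.19 (SE 0.55, edgeR adjusted p 0.114) in the adrenal. Without calf 3213 these were 1.45 (SE 0.72, adjusted p 0.381) and -1.26 (SE 0.61, adjusted p 0.151). The adrenal counts were 20, 5, 1 and 14 in IVP calves 3208, 3209, 5833 and 5841 and 23, 26, 31 and 20 in MOET calves 3217, 3218, 5932 and 3213. On CPM every IVP adrenal was below every MOET adrenal, with means of 0.521 and 1.36 CPM (calf 3213 included). The same order of the groups was found for rank 8 in the adrenal. The share of all adrenal genes without overlap is not given here, while edgeR called 39.3% of them for origin. The pituitary counts of rank 7 were 0, 15, 0 and 24 in the same IVP calves and 16, 0, 27 and 5 in the MOET calves, so calves of both origins had no count of it.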

How the data were processed

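The authors deposited raw counts: whole numbers for 27607 Ensembl gene IDs in 32 libraries, in 1 table that had 0 columns of other series. Per the labels' protocols, mRNA was poly(A)-selected, libraries were not stranded, paired-end reads came from a DNBSEQ instrument and were cleaned with SOAPnuke. The submitters' processing notes name STAR 2.7, HTSeq and bosTau9; their settings and the annotation release were not found in the sources used here.

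Members were selected from CPM as the report describes. Each tissue was filtered on its own (filterByExpr of edgeR, at least 10 counts and a total of 15), and edgeR's robust quasi-likelihood fit after TMM scaling gave the p-values. Their Benjamini-Hochberg adjustment ran over all genes tested in that tissue, with a threshold of 0.05. An SE is the size of the log2 fold change over the root of F. Log2 CPM used a prior count of 2. In the smallest testicle library 3 counts stand for 0.148 CPM, and counting errors cover counting only. The calf-to-calf score weighted testicle log2 CPM by the mean loading of the first within-group component of the other 3 tissues. The fits were tested on simulated data. Alternatives were DESeq2, limma's voom, other scaling, no filter, covariates and single calves left out; the other models with 1 calf left out, those without calves 3209 and 5932 and those without scaling were added after seeing the data.

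Genes were named by smallest p in each direction, by highest and lowest variation, by nearness to the limits of the selection and by highest level in any tissue; few IDs are printed, and the rest go by rank. Planned descriptions of gene lists, promoters and proteins were not run, since 0 IDs matched a symbol. The members and lists were chosen with earlier results of these data known. The tools were edgeR 4.0.16, DESeq2 1.42.0 and limma 3.58.1 under R 4.3.3, and figures were drawn with matplotlib 3.10.9 under Python 3.11.15.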

Additional observations from a re-analysis of the deposited data

Results flagged for a closer look

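Each of the 51 genes gave an IVP and a MOET group of 4 testicle libraries, 102 groups in all, and in 7 of them the highest or lowest library lay far from the other 3. Such a rule nominally marks about 1 in 20 groups of 4 separate libraries by chance. That rate need not hold here, since the genes share libraries and each MOET group includes calf 3213. The share of groups marked over all genes is not given here. In 6 of the 7 the library was that of IVP calf 3209, which had the lowest testicle level for 49.3% of all genes. It was the highest for rank 1, with 25.9 CPM against 10.9 to 13.4 CPM in the other IVP testicles. It was the lowest for rank 6 (5.84 CPM against 16 to 17.4), rank 23 (3.40 CPM against 7.49 to 8.14) and rank 28 (2.25 CPM against 6.05 to 6.64). It was also the lowest for rank 37 (2.66 CPM against 9.53 to 9.76) and rank 47 (1.47 CPM against 6.18 to 7.05). For rank 39 the library apart was that of MOET calf 5932, with 10.7 CPM against 5.98 to 6.57 CPM in the other MOET libraries, which include that of calf 3213.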

How the results depend on the processing

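The count of 0 members called for origin in the testicle held with DESeq2's size factors, without scaling, without the filter on low counts, with age or the animal number series as a covariate, and with each calf left out in turn (0 to 0). It moved to 11 members (289 of all genes) with DESeq2's own test, 28 (5512) with voom, 22 (2015) with the calf-to-calf score as a covariate, 1 (180) with all 32 libraries in 1 fit and 5 (203) without calves 3209 and 5932. Without calf 3213 the score fit, DESeq2 and voom called 3 (150), 4 (62) and 3 (74); the cause was not tested. With each calf left out in turn, the score fit called 3 to 25 members, beside 0.908% to 18.3% of all genes. It called 10 without calf 3209 (4.3% of all genes), 11 without 3208 (4.28%), 13 without 3217 (9.69%) and 4 without 5841 (2.21%). DESeq2 called 4 to 14 members, beside 0.375% to 2.56% of all genes. It called 4 without 3208 (0.659%) or 5841 (0.502%), 5 without 3217 (0.782%) and 7 without 5932 (1.37%). Voom called 1 to 33 members, beside 0.393% to 41.6% of all genes. It called 10 without 3208 (4.57%), 1 without 5841 (0.393%) and 18 without 5932 (4.84%). The count over all genes ranged from 0 to 9 with 1 calf left out: 0 without calf 3217, 2 without 3208, 3 without 5833 and 9 without 3209.

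Without the filter 1 member was called in the pituitary and 2 in the adrenal. With 1 calf left out the pituitary gave 0 to 1 (1 without calf 3218). The adrenal gave 0 to 3: 3 without calf 3208, 2 without 3209 or 3217, and 0 without 3213, 3218 or 5932. With all calves and the filter, edgeR called 15.3% of all genes in the pituitary and 39.3% in the adrenal. Without calf 3213 these shares were 2.37% and 20.7%, and for the other alternatives they are not given here. For the hypothalamus and for body weight 0 members were called under each alternative run. For the 10 members named by smallest p, 168 of 210 alternative values stayed on their side of the threshold, 42 passed it and 0 changed sign. The choice by p and the shared libraries favour stable signs. Without scaling the median of all genes moved from 0.03 to -0.08 and that of the members from -0.32 to -0.42. Of the 51 genes 48 were kept with TMM-scaled totals and 49 with tissue medians. No paired analysis was possible because IVP and MOET calves share no animal number. Counts of 11 to 563 per member and testicle library, and 3 MOET testicles beside that of calf 3213, limit the precision.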
